A study of Mus musculus with 11 samples.

Results

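The simple-epithelium keratins Krt7, Krt8, Krt18 and Krt19 were followed in WFU3, a mouse line of prostate epithelial stem cells. They were taken by gene symbol and are 4 of the 48299 genes in the deposited table of counts. All 4 passed the filter on low counts. Messenger RNA was sequenced in 11 libraries with lentiviral short hairpin RNAs (shRNAs) against Map3k7, which encodes the kinase TAK1, against Chd1, which encodes a chromatin remodeller, against both, or with control hairpins.

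The shControl group had 3 libraries: an unnumbered line at passage 30 carrying control hairpins marked puro and neo (replicate 1), and lines numbered 4 and 5 at passage 52, with GFP-marked and puro-marked control hairpins (replicates 2 and 3). The shMap3k7 group had 2 libraries, those of clone 1 (passage 49) and clone 7 (passage 47), each with the shTak1 hairpin marked GFP and a control hairpin marked puro. The shChd1 group had 2 libraries, both of control line 4, with Chd1 construct 96526 at passage 52 (replicate 1) and construct 96528 at passage 50 (replicate 2). The shDouble group had 4 libraries: clone 1 at passage 49 with constructs 96526 and 96528 (replicates 1 and 2), and clone 7 at passage 48 with the same constructs (replicates 3 and 4). All but shControl replicate 1 thus carried a GFP-marked and a puro-marked hairpin, and the Map3k7 knockdown rests on 2 clones. Libraries of a group differed in line, clone, Chd1 construct or passage, and no line with the same hairpins was sequenced more than once. The p-values thus measure the spread between these libraries, of which those of 1 line are related.

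Keratins form the intermediate filaments of epithelial cells, and every filament is built from pairs of a basic type II keratin with an acidic type I keratin. Krt8 and Krt7 are type II, Krt18 and Krt19 are type I, and Krt8 with Krt18 is the pair of simple epithelia. In the prostate these keratins mark luminal cells, whereas Krt5 and Krt14 mark the basal layer.

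Krt7, Krt8 and Krt18 lie in the type II cluster on chromosome 15, although Krt18 encodes a type I keratin, and Krt19 lies in the type I cluster on chromosome 11. In GENCODE M21 coordinates on GRCm38, Krt7 spans chr15:101411043-101430313 on the plus strand, Krt8 chr15:101996698-102004482 on the minus strand, Krt18 chr15:102028180-102032027 on the plus strand and Krt19 chr11:100140810-100148665 on the minus strand. Krt8 and Krt18 stand 23.7 kb apart with their starts facing each other, and no annotated gene lies between them. The 250 bases upstream of the RefSeq start (GRCm38.p6) were matched for 3 of the 4 keratins. These RefSeq starts differ from the starts of the GENCODE spans above. By the GENCODE spans, the Krt7 window lies wholly within Krt7, and the Krt8 and Krt18 windows overlap the starts of their genes. The E-box marked below then falls within the gene for Krt7 and Krt8 and upstream of it for Krt18. No window was matched for Krt19. The E-box CAGGTG is marked because each of these 3 windows holds it, so its presence in all 3 is no test. Repressors of epithelial genes such as Zeb1 are known to bind this sequence, but binding here was not tested. Capitals mark the E-box, which all 3 carry as its reverse complement, 5′ to 3′ on the strand of the gene.
Krt7, chr15:101412153-101412402, plus strand: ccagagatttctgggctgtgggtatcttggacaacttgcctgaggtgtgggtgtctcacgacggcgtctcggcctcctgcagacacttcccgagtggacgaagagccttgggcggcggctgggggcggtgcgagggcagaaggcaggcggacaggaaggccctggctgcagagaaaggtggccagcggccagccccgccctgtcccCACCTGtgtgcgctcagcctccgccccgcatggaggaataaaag
Krt8, chr15:102004343-102004592, minus strand: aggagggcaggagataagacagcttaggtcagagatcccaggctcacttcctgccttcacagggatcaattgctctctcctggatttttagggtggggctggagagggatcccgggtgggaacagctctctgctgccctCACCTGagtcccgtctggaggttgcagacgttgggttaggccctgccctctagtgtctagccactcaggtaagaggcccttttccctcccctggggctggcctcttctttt
Krt18, chr15:102027966-102028215, plus strand: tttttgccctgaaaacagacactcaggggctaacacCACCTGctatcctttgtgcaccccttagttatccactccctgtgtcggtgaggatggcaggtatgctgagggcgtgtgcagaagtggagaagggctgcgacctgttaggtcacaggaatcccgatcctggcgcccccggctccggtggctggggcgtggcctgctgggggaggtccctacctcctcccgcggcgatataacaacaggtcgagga

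The E-box ended 38 bases before the end of the window in Krt7, 105 bases before it in Krt8 and 208 bases before it in Krt18. Searched on both strands, CAGGTG was present in 17.2% of the 32851 RefSeq promoter windows of this length. The GC box GGGCGG was found 4 times in the Krt7 window and not in the other windows, against 32.7% of all windows. The ETS letters GGAAGT were found in the Krt7 and Krt8 windows, against 19.7% of all. Neither the AP-1 letters TGANTCA (6.75% of all windows) nor the NF-kB consensus (3.9%) was found in the 3 windows, and no match overlapped another. A match describes the letters only.

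Libraries held 14132371 to 23163709 counts. Map3k7 mRNA, given like all levels below as counts per 1000000 counts of a library (CPM), with library sizes scaled by edgeR's trimmed mean of M-values, was 124 to 140.3 in shControl and 138 in each shChd1 library, against 40 to 43 in shMap3k7 and 39.3 to 42.1 in shDouble. Chd1 mRNA was 195 to 212 CPM in shControl and 145 and 150.2 in shChd1, a fall of log2 -0.46 ± 0.10 (SE; edgeR adjusted p 0.047). In shDouble it was 162 to 198 CPM against 221 and 238 in shMap3k7, a difference of -0.30 ± 0.10 that did not pass (edgeR adjusted p 1). shControl replicate 1 stood apart from the other libraries in several markers: the 6 endothelial markers summed to 51.6 CPM there and to at most 1.87 elsewhere, and Krt5 was at 48.9 CPM there and at most 1.93 elsewhere. The luminal label of the keratins was not matched by the defining luminal genes: Dpp4 and Pbsn had 0 counts in all 11 libraries, and Hoxb13 was at most 1.41 CPM. The 4 genes are therefore described as simple keratins.

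Krt8, the type II partner of the simple-epithelial pair, had the highest CPM of the 4. It was at 3064, 1323 and 2464 CPM in shControl replicates 1 to 3, 3847 and 3747 in shMap3k7, 853 and 784 in shChd1, and 3667, 3704, 3839.8 and 3938 in shDouble. All 6 libraries of the Map3k7 clones were above all 5 libraries of the control lines, the shChd1 libraries were below all others, and control line 4 was the lowest control. Here and below, the share of all genes whose groups do not overlap was not counted. Krt8 took 0.358% to 0.384% of all counts in the Map3k7 clones and 0.0836% to 0.321% in the control lines.

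Krt18, the type I partner, was at 1829, 630.2 and 1684 CPM in shControl, 3058 and 2924 in shMap3k7, 487 and 387 in shChd1, and 2883, 2747, 3099.7 and 2824 in shDouble. Libraries were ordered by group as for Krt8, again with no overlap between Map3k7 clones and control lines. The coefficient of variation over the 6 Map3k7 clone libraries was 4.64% for Krt18 and 2.69% for Krt8, against 69.2% and 59.9% over the 5 control-line libraries.

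Krt7, a type II keratin of ducts and glands, was at 1224, 991 and 1573 CPM in shControl, 1636 and 1553 in shMap3k7, 610.2 and 462 in shChd1, and 1589, 1402, 1479 and 1358 in shDouble. Control line 5 lay within the range of the Map3k7 clones (1358 to 1636), so those ranges overlapped, while both shChd1 libraries were below every other library. Krt19, the smallest type I keratin, which lacks most of the tail domain, was at 44.8, 35.4 and 91.2 CPM in shControl, 107 and 81.8 in shMap3k7, 22.6 and 13 in shChd1, and 121, 106, 81.2 and 67 in shDouble. Control line 5 was again within the range of the Map3k7 clones. Clone 1 (106 to 121 CPM) was above clone 7 (67 to 81.8) for Krt19, whereas for Krt8, Krt18 and Krt7 the ranges of the 2 clones overlapped.

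**Figure D1:**
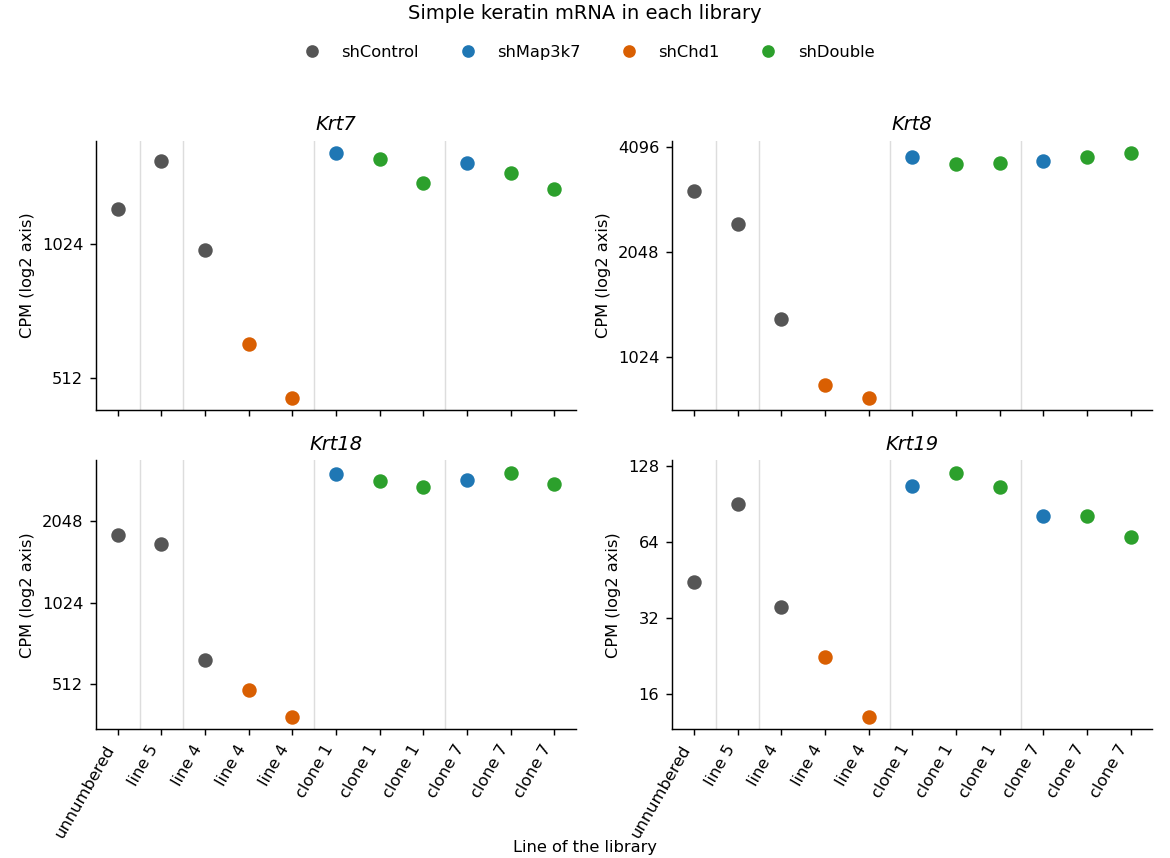
CPM of Krt7, Krt8, Krt18 and Krt19 in each of the 11 libraries on a log2 axis, 1 point per library, ordered by line and coloured by group. The 6 libraries of Map3k7 clones 1 and 7 lie close together, from 3667 to 3938 CPM for Krt8, and the shChd1 libraries of control line 4 are lowest in all 4 panels.

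Map3k7 knockdown was compared with control hairpins to ask how loss of TAK1 changes these cells. Krt8 averaged 3797 ± 70.7 CPM in shMap3k7 (SD, n = 2) against 2284 ± 884 in shControl (n = 3), and Krt18 averaged 2991 ± 94.6 against 1381 ± 654. The log2 differences were 0.73 ± 0.25 for Krt8 (SE; edgeR adjusted p 0.0803) and 1.12 ± 0.33 for Krt18 (0.052), and the groups did not overlap for either gene. Krt7 differed by 0.34 ± 0.18 (edgeR adjusted p 0.231) and Krt19 by 0.73 ± 0.39 (0.242), with overlapping groups. None of the 4 thus passed the threshold of an adjusted p under 0.05, against 11.9% of the 14346 genes tested. Krt18 passed with each of the 3 controls left out in turn, at adjusted p 0.0332, 0.00532 and 0.0457 without replicates 1, 2 and 3, and also with DESeq2 (0.00598), with limma (0.0475) and with no filter on low counts (0.0232). It did not pass with only the groups compared (0.2), with counts summed per line (0.152), or without shMap3k7 replicate 1 (0.191) or 2 (0.161). Krt8 passed without replicate 1 (1.00, adjusted p 0.0214) and without replicate 2 (0.46, 0.0305). Without replicate 3, Krt7 passed at 0.52 (adjusted p 0.0447) and Krt19 at 1.24 (0.0309).

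With shDouble in place of shMap3k7, Krt8 and Krt18 rose. Krt8 averaged 3787 ± 125 CPM (n = 4) and rose by log2 0.73 ± 0.21 over shControl (SE; edgeR adjusted p 0.0325), and Krt18 averaged 2888 ± 152 and rose by 1.06 ± 0.29 (0.0231), higher in 4 of 4 libraries than in any control. Krt7 (0.21 ± 0.15, adjusted p 0.34) and Krt19 (0.72 ± 0.33, 0.144) did not pass, and their groups overlapped. These 2 of 4 stand against 10.2% of all genes tested that were called higher, and the median of the 4 keratins was 0.72 against -0.00 over all genes. The Krt8 call was lost when only the groups compared were fitted (adjusted p 0.0687), and it was lost in 7 of the 11 fits that left out a library, at adjusted p up to 0.0695. These were the fits without shControl replicate 3, without each of the 4 shDouble libraries and without each of the 2 shChd1 libraries. Summing counts per line ended both calls (0.194 for Krt8, 0.155 for Krt18), and Krt18 missed the threshold without shDouble replicate 3 (0.0505). Without shControl replicate 3 Krt19 passed at 1.23 (0.0139).

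Averaged over Chd1 status, that is, with shMap3k7 against shControl and shDouble against shChd1 given equal weight, all 4 keratins rose. Krt18 rose by log2 1.92 ± 0.24 (3.78-fold; edgeR adjusted p 0.000185), Krt19 by 1.56 ± 0.28 (2.95-fold; 0.00135), Krt8 by 1.47 ± 0.18 (2.77-fold; 0.000158) and Krt7 by 0.89 ± 0.12 (1.85-fold; 0.000309). In this comparison 24% of all genes tested were called higher and 23.7% lower. Without control line 4 and its shChd1 libraries, Krt18 rose by 0.73 (adjusted p 0.000931) and Krt8 by 0.44 (0.0159), while Krt7 (0.11, 0.534) and Krt19 (0.46, 0.359) did not pass. Here and below, this fit holds no shChd1 library and sets shMap3k7 and shDouble against shControl replicates 1 and 3. It is thus not averaged over Chd1 status. Line 4 and the shChd1 group were removed at once, so the smaller size cannot be assigned to the line. Leaving out 1 library at a time kept the averaged rise at 1.75 to 2.05 for Krt18 and 1.33 to 1.61 for Krt8. For Krt19 it was 1.39 to 1.82 and for Krt7 0.79 to 0.99. With counts summed over each line, 2 Map3k7 lines against 3 control lines gave 1.12 for Krt18 (adjusted p 0.281), 0.80 for Krt8 (0.354), 0.82 for Krt19 (0.419) and 0.36 for Krt7 (0.566), and no keratin passed.

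Chd1 knockdown alone was compared with control hairpins. Krt7 fell by log2 -1.24 ± 0.18 (SE; edgeR adjusted p 0.0248), to 536 ± 105 CPM (SD, n = 2) from 1263 ± 293 (n = 3). Krt8 fell by -1.48 ± 0.27 (0.0324), to 819 ± 48.5 from 2284 ± 884. Krt18 fell by -1.66 ± 0.35 (0.0434), to 437 ± 70.9 from 1381 ± 654. Krt19, at 17.8 ± 6.8 against 57.1 ± 29.9 CPM, differed by -1.68 ± 0.43 and missed the threshold (0.0603). Both shChd1 libraries were below all 3 controls for each of the 4 genes, but how many of all genes separate in this way was not counted. These 3 of 4 stand against 2.24% of all genes tested that were called lower, and the median of the 4 was -1.57 against -0.01 over all genes.

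Both shChd1 libraries came from control line 4, the control with the lowest levels of all 4 keratins, so the group difference contains that of the lines. With the line as a replicate block, which sets the shChd1 libraries against their own line, Krt7 fell by -0.89 (adjusted p 0.0257) and Krt8 by -0.69 (0.00913), Krt18 differed by -0.53 and lost its call (0.0808), and Krt19 differed by -0.99 (0.1). Fitting only the groups compared (adjusted p 0.2 for Krt7, Krt8 and Krt18) or summing counts per line (0.523 for each) ended the 3 calls. Of the 11 fits that left out a library, the fit without shControl replicate 2 alone kept Krt8 and Krt18 (adjusted p 9.8e-05 for each, at -1.75 and -2.01), and it also brought Krt19 to -1.94 (0.0106). The other 10 gave adjusted p up to 0.42 for Krt8 and 0.426 for Krt18. Krt7 lost its call without shControl replicate 1 (0.0618), shControl replicate 3 (0.0604), shChd1 replicate 1 (0.063) and shChd1 replicate 2 (0.394). Krt19 passed with DESeq2 (0.000748) and with no filter on low counts (0.0226).

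**Figure D2:**
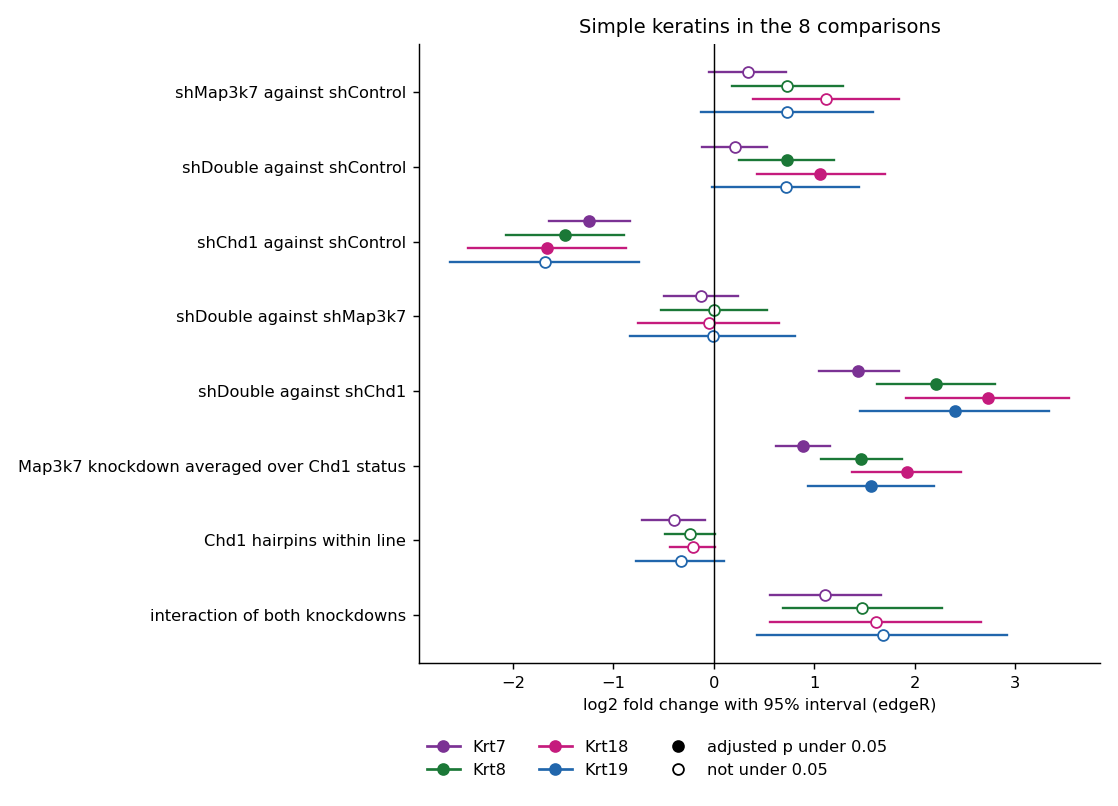
Log2 fold changes of the 4 keratins in the 8 comparisons from edgeR, with 95% intervals as lines, where filled points had an adjusted p under 0.05 and open points did not. Points lie right of 0 for Map3k7 knockdown and left of 0 for shChd1 against shControl, and shDouble against shMap3k7 is centred near 0.

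Adding Chd1 hairpins to the Map3k7 clones was tested as shDouble against shMap3k7. Krt8 stood at 0.997 times its shMap3k7 level, with a 95% interval of the log2 difference from -0.53 to 0.53, and Krt18 at 0.966 times (-0.75 to 0.65). Krt7 differed by -0.13 (-0.50 to 0.24) and Krt19 by -0.01 (-0.83 to 0.81), all at an edgeR adjusted p of 1. The groups overlapped for each gene, and the intervals of Krt18 and Krt19 include differences above 1.5-fold either way. No gene of the 14346 was called here (0%) by edgeR, DESeq2 or limma, while 115 had an unadjusted p under 0.05 by edgeR, 91 by DESeq2 and 289 by limma. Chd1 itself, the target, was thus not called, at -0.30 ± 0.10 (SE). It stood at 73.5% to 89.7% of its own line in the Map3k7 clones, so the comparison covers a partial loss of Chd1 mRNA.

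Against shChd1, all 4 keratins rose in shDouble. No shDouble library overlapped a shChd1 library, a separation not counted over all genes. Krt18 rose by log2 2.73 ± 0.37 (6.61-fold; edgeR adjusted p 0.000351), Krt19 by 2.40 ± 0.43 (5.28-fold; 0.00145), Krt8 by 2.21 ± 0.27 (4.63-fold; 0.000216) and Krt7 by 1.44 ± 0.18 (2.72-fold; 0.00024). The share of all genes tested that were called higher was 22.6%. This comparison crosses lines as well as hairpins, since the shChd1 libraries are of control line 4. With counts summed per line, Krt19 lay at the threshold (2.40, adjusted p 0.0501).

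The interaction, in which the shChd1 difference from shControl is subtracted from the shDouble difference from shMap3k7, asks whether the Chd1 hairpins acted alike with and without Map3k7 knockdown. It was 1.11 ± 0.25 for Krt7 (edgeR adjusted p 0.185), 1.48 ± 0.36 for Krt8 (0.185), 1.61 ± 0.47 for Krt18 (0.228) and 1.68 ± 0.56 for Krt19 (0.262). None of the 4 passed, and none of all genes tested did (0%; 1998 had an unadjusted p under 0.05). DESeq2 called 395 genes and limma 0, and DESeq2 passed Krt7 (1.09, adjusted p 0.00313), Krt8 (1.46, 0.00425) and Krt18 (1.59, 0.0201). With the line as a replicate block Krt8 passed at 0.69 (adjusted p 0.0495), and Krt7 (0.76, 0.147), Krt18 (0.48, 0.254) and Krt19 (0.97, 0.241) did not. Leaving out shControl replicate 2, the control of line 4, gave 1006 calls, among them Krt7 (1.25, 0.00915), Krt8 (1.75, 0.000734) and Krt18 (1.96, 0.000734). Both shChd1 libraries are of line 4, so without the line block the interaction also contains the difference between control lines. In the fit without shControl replicate 2, line 4 and the Chd1 hairpins cannot be told apart, so these calls do not answer the question asked.

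Each Chd1 hairpin library was also set against the control-hairpin library of its own line. In control line 4, Krt7 was at 61.6% with construct 96526 and 46.6% with construct 96528, Krt8 at 64.5% and 59.3%, Krt18 at 77.3% and 61.4%, and Krt19 at 63.8% and 36.6%. Each keratin was lower with either construct, and lower with 96528 than with 96526. In Map3k7 clone 1 the values were 97.1% and 85.7% for Krt7, 95.3% and 96.3% for Krt8, 94.3% and 89.8% for Krt18, and 113% and 99.5% for Krt19. In clone 7 they were 95.2% and 87.5% for Krt7, 102% and 105% for Krt8, 106% and 96.6% for Krt18, and 99.2% and 82% for Krt19. Krt7 was thus below its own line in 6 of 6 libraries, while Krt8, Krt18 and Krt19 stood on both sides of 100% in the Map3k7 clones. Both constructs of a line were set against the same control library, so the 6 values are not independent. The share of all genes below their own line in all 6 was not counted. Chd1 mRNA itself was at 74.6% and 77.1% in control line 4, 89.7% and 73.5% in clone 1, and 81.5% and 79.7% in clone 7.

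The test of the Chd1 hairpins within line over all 3 lines gave -0.40 ± 0.14 for Krt7, -0.24 ± 0.11 for Krt8, -0.21 ± 0.10 for Krt18 and -0.33 ± 0.20 for Krt19, each at an edgeR adjusted p of 0.937. None of the 4 passed, and 0.0279% of all genes tested did. Leaving out 1 library at a time moved these values to between -0.52 and -0.13 for Krt7, -0.38 and -0.0046 for Krt8, -0.32 and -0.05 for Krt18, and -0.55 and -0.03 for Krt19. The values nearest 0 came without shControl replicate 2, the control library of line 4. Line 4 then has no library without a Chd1 hairpin, so by design that fit rests on the Map3k7 clones alone. Each construct was present once per line, so a line and construct together have no replicate.

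**Figure D3:**
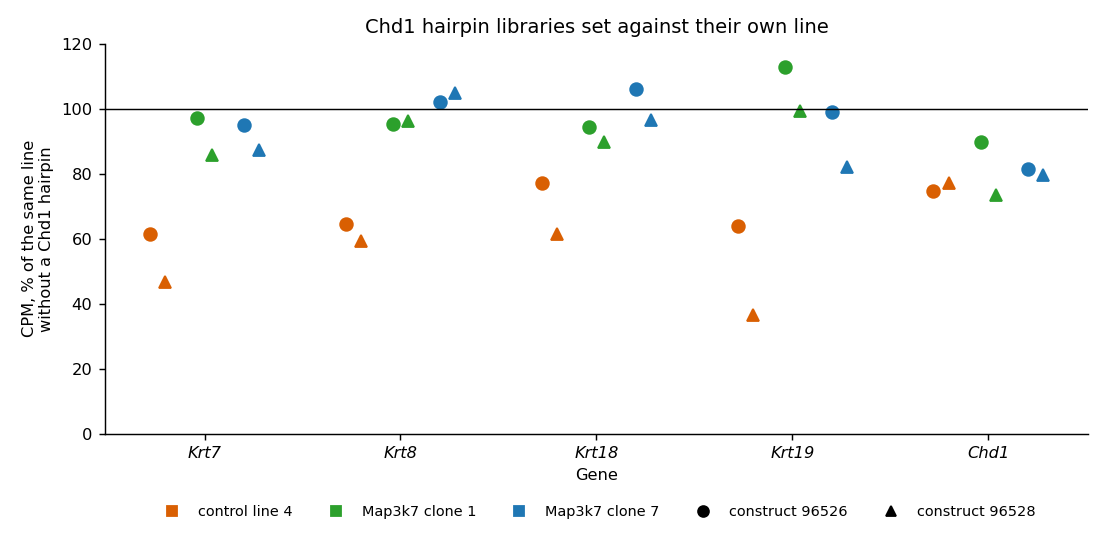
CPM of each keratin and of Chd1 in the Chd1 hairpin libraries as a percent of the same line's library with control hairpin in place of Chd1 hairpin, by line (colour) and construct (shape), 1 library per point. The keratins lie between 36.6% and 77.3% in control line 4 and between 82% and 113% in the Map3k7 clones, while Chd1 lies between 73.5% and 89.7% in all 3 lines.

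Because type I and type II keratins pair, their balance was computed as CPM per kb of the principal GENCODE transcript. Krt8 over Krt18 was 1.23, 1.54 and 1.07 in shControl replicates 1 to 3, 1.29 and 1.49 in shChd1, 0.923 and 0.94 in shMap3k7, and 0.934, 0.99, 0.909 and 1.02 in shDouble. All 6 Map3k7 clone libraries were below all 5 control-line libraries, and on this scale Krt18 exceeded Krt8 in 5 of the 6. The summed type II over type I members, Krt7 + Krt8 over Krt18 + Krt19, averaged log2 0.14 ± 0.05 in the Map3k7 clones (SD, n = 6; 0.07 to 0.22) and 0.71 ± 0.24 in the control lines (n = 5; 0.42 to 0.99). The difference was -0.57 (exact two-sided permutation test over libraries, p = 0.00433, the smallest this design allows).

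Over lines in place of libraries, 2 against 3, the difference was -0.46 with an exact permutation p of 0.2, the smallest possible there. Without control line 4 it was -0.33 (exact permutation p 0.0714, again the smallest possible), and the remaining libraries did not overlap. Whether the ratio stands above or below 1 depends on the lengths used: by coding length, Krt8 over Krt18 was 1.07 to 1.2 in the Map3k7 clones and 1.26 to 1.81 in the control lines.

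**Figure D4:**
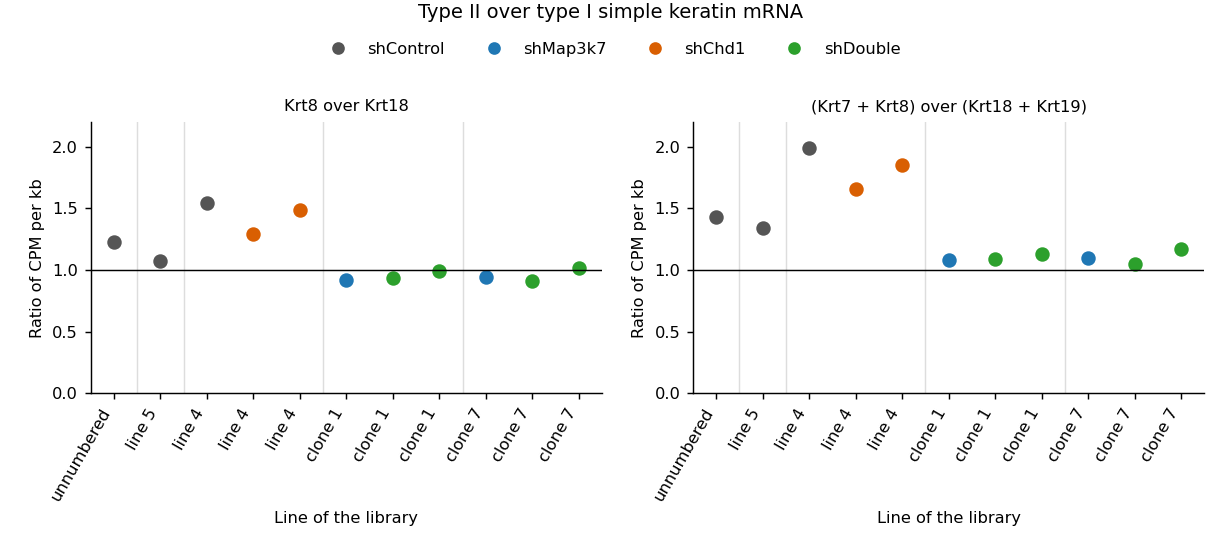
Ratio of CPM per kb of type II to type I simple keratins in each library, with Krt8 over Krt18 on the left and Krt7 + Krt8 over Krt18 + Krt19 on the right, 1 point per library and a line at 1. Map3k7 clone libraries lie at 0.909 to 1.02 on the left, below the control lines at 1.07 to 1.54.

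Within each type, Krt19 was the minor partner. It made up 2.12% to 4.87% of the simple type I level per kb over the 11 libraries. Krt7 made up 14.2% to 26.4% of the simple type II level, but this share depends on the transcript taken for Krt7, whose principal transcript has 4094 bases and 1371 coding bases. By coding length it was 27% to 44.5%, and by all annotated exons 8.74% to 17.2%. With any of these lengths the share was lower in Map3k7 clone 1 and clone 7 than in control lines 4 and 5. The unnumbered control line, at 16%, lay within the range of the Map3k7 clones (14.2% to 17.2%), and it did so by the other lengths too (9.98% against 8.74% to 10.7% by all exons, 30% against 27% to 31.7% by coding length).

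The other keratins followed the simple keratins in part. Krt14, a type I keratin of basal cells, was at 3903, 1371 and 1541 CPM in shControl, 2068 and 2131 in shMap3k7, 564 and 545 in shChd1, and 2095, 2404, 1642 and 2232 in shDouble. It fell in shChd1 by log2 -2.04 ± 0.40 (SE; edgeR adjusted p 0.0358) and rose by 0.90 ± 0.26 with Map3k7 knockdown averaged over Chd1 status (0.0147), but without control line 4 and its shChd1 libraries this second value was -0.39 (adjusted p 0.413). Its usual partner Krt5 did not accompany it: beyond shControl replicate 1 it was at most 1.93 CPM. Krt6a, a stress keratin, was at 1496 CPM in shControl replicate 1, 59.6 and 172 in the other controls, 120.4 to 213 in the Map3k7 clones and 10.9 and 2.15 in shChd1. Krt6b was at 84.3 CPM in shControl replicate 1 and at most 12.6 elsewhere, and the counting divides reads between Krt6a and Krt6b, so the split is uncertain. Krt16 was at 71.2 CPM in that library and at most 15.4 elsewhere. Krt80, a type II keratin of differentiating cells, fell in shChd1 by -1.73 ± 0.34 (edgeR adjusted p 0.0358), from 127 to 38.4 CPM (by the line block -0.94, adjusted p 0.121, and without shControl replicate 1 -1.64, 0.0962), and Krt10 was at 1.81 to 3.86 CPM in all libraries.

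Of 7 basal and stress keratins 5 were tested, and 3 fell in shChd1 while none was called in shMap3k7, against 2.24% of all genes called lower in shChd1 and 11.9% called either way in shMap3k7. The medians were -5.08 and -1.86 against -0.01 over all genes in each, with shControl replicate 1, the library highest in Krt6a, Krt6b and Krt16, among the controls. The 3 were Krt14, Krt6a and Krt6b, of which Krt14 alone passed without shControl replicate 1 (-1.39, adjusted p 0.028; -4.15, 0.0618, for Krt6a and -3.90, 0.0698, for Krt6b). With the line as a replicate block Krt14 (-1.31, 0.0102) and Krt6a (-3.19, 0.0274) passed and Krt6b did not (-3.21, 0.0543). Averaged over Chd1 status 1 of the 5 rose, against 24% of all genes. But 4 rose without shControl replicate 1, against 3417 of all 14247 genes. And 3 fell without control line 4 and its shChd1 libraries, against 1123 of all 13789 genes. Krt6a passed in opposite directions in these fits, at 2.39 (adjusted p 0.00191) and -2.55 (0.0241). The second of these fits holds no shChd1 library. Per kb, the 4 simple keratins made up 50.4% of the listed keratins in shControl replicate 1, 61.4% and 73.3% in the other controls, 73.3% to 80.7% in the Map3k7 clones and 72.4% and 70.3% in shChd1. The simple keratins summed to 4213 to 4561 CPM per kb in the Map3k7 clones, 1379 to 3165 in shControl and 938 and 791 in shChd1.

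**Figure D5:**
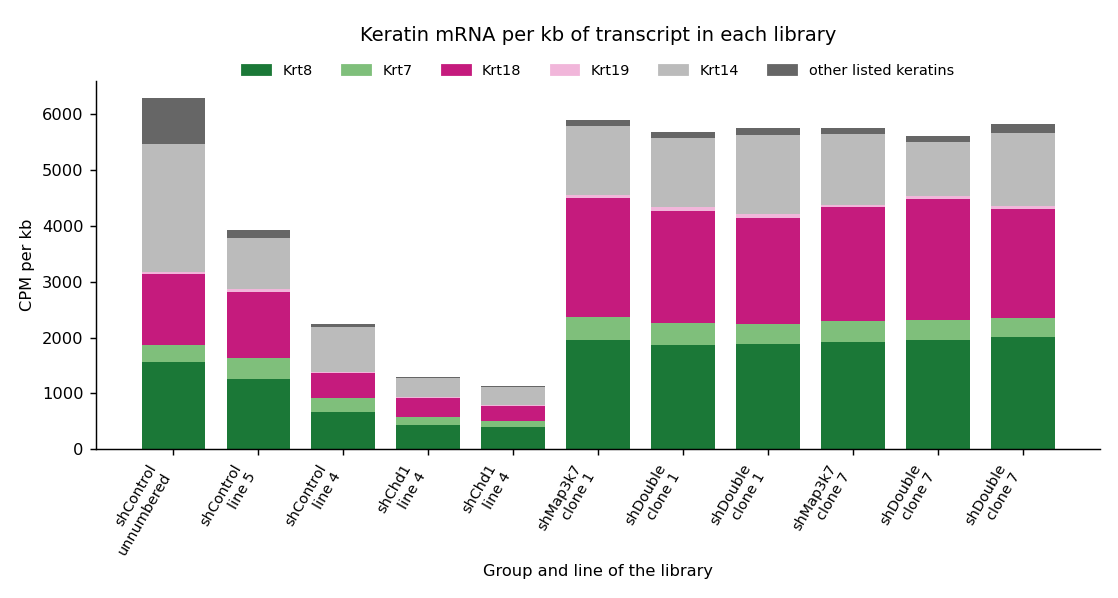
CPM per kb of the principal transcript in each library, stacked for Krt8, Krt7, Krt18, Krt19, Krt14 and the sum of the other listed keratins. The 4 simple keratins sum to 4213 to 4561 CPM per kb in the Map3k7 clones and to 938 and 791 in the shChd1 libraries.

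Proteins that anchor or bundle keratin filaments were taken as a list of 15 genes, 14 of them tested. In shChd1, 6 fell and none rose, against 2.24% of all genes called lower, with a median of log2 -0.71 against -0.01 over all genes. The desmosomal linker Dsp fell by -1.61 ± 0.26 (SE; edgeR adjusted p 0.0253), the plakophilin Pkp1 by -1.19 ± 0.17 (0.0248) and the envoplakin gene Evpl by -1.53 ± 0.29 (0.0354). With Map3k7 knockdown averaged over Chd1 status 9 rose and 2 fell, against 24% and 23.7% of all genes. The desmosomal cadherin Dsg2 rose by 1.04 ± 0.10 (4.1e-05), Evpl by 1.55 ± 0.19 (0.000166) and Dsp by 1.29 ± 0.17 (0.000268). Dsp was at 699, 329 and 659 CPM in shControl, 751 to 816 in the Map3k7 clones and 196 and 172 in shChd1, the order seen for Krt8. Without shControl replicate 1 none of the 14 passed in shChd1, where 4 of all 14247 genes tested were called lower. With the line as a replicate block 4 fell, against 92 of all 14346 genes. Without control line 4 and its shChd1 libraries 2 were higher and 0 lower, against 717 and 1123 of all 13789 genes.

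Luminal genes other than keratins were taken as a list of 16, of which 13 were tested. Averaged over Chd1 status 10 rose and none fell, against 24% and 23.7% of all genes, with a median of 1.33 against 0.00 over all genes. The E-cadherin gene Cdh1 rose by 1.55 ± 0.15 (edgeR adjusted p 5.6e-05), the epithelial adhesion gene Epcam by 1.33 ± 0.14 (8.3e-05) and the transcription factor Pax8 by 3.98 ± 0.44 (9.7e-05). In shChd1 3 fell, Epcam by -1.17 ± 0.21 (0.0322), Cdh1 by -1.09 ± 0.22 (0.0387) and the claudin Cldn7 by -1.41 ± 0.30 (0.042), against 2.24% of all genes called lower, and none rose. Cdh1, Epcam and Cldn7 serve epithelial adhesion in general and are not particular to luminal cells. Pax8 was at 25.7 to 31.3 CPM in clone 1 and 8.9 to 13 in clone 7, and whether it marks luminal cells here was not tested. Without shControl replicate 1 none fell in shChd1, where 4 of all 14247 genes tested were called lower. With the line as a replicate block 1 did, against 92 of all 14346 genes. Without control line 4 and its shChd1 libraries 4 rose, against 717 of all 13789 genes called higher.

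Among 14 transcription and splicing regulators of epithelial genes, 8 rose and 1 fell with Map3k7 knockdown averaged over Chd1 status, against 24% and 23.7% of all genes. In shChd1 4 of the 14 fell and none rose, against 2.24% called lower. With the line block 1 fell, against 92 of all 14346 genes, and without shControl replicate 1 none did, against 4 of 14247. The splicing factor Esrp1 rose by 1.58 ± 0.15 (edgeR adjusted p 5.4e-05), and the ETS factor Ehf fell by -4.23 ± 0.32 (1.7e-05). All 6 repressors of epithelial genes on the list fell in the averaged comparison, against the same 23.7%. Zeb1 was at 20.8, 50.1 and 24.2 CPM in shControl, 59.3 and 51.4 in shChd1, 0.195 and 0.724 in shMap3k7, and 0.177 to 1.3 in shDouble. Its highest control was line 4, which had the lowest keratins. Zeb2 fell by -3.56 ± 0.36 (6.1e-05). In shChd1 none of the 6 repressors passed. Without control line 4 and its shChd1 libraries, 3 regulators were higher and 1 lower, and 5 repressors were lower. Of all 13789 genes tested in that fit, 717 were called higher and 1123 lower.

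The summed fibroblast and neuroendocrine markers were highest in shChd1, where the keratins were lowest, and lowest in the Map3k7 clones. The 9 fibroblast markers summed to 115, 119.9 and 24.7 CPM in shControl, 198 in each shChd1 library and 5.11 to 9.99 in the Map3k7 clones, and of the defining markers Lum was at 0 in every library and Thy1 at 0 in all but shControl replicate 1, where it was at 0.0624. Other fibroblast markers were present: Col3a1 was at 90.9 and 87.1 CPM in shChd1, 34, 18 and 1.21 in shControl and at most 0.0917 in the Map3k7 clones. Fbln1 was at 72.4 and 78.7 CPM in shChd1, 22.3, 75 and 0.165 in shControl and at most 0.221 in the clones. Pdgfrb was at 21.8 and 18.3 CPM in shChd1, 25.2, 11.4 and 9.34 in shControl and at most 0.0724 in the clones. Col1a1 (12.7 CPM) and Dcn (8.23) were also highest in shControl replicate 1. In shChd1 against shControl none of the 5 fibroblast markers tested was called, against 417 of all 14346 genes. All 5 fibroblast markers tested fell with Map3k7 knockdown averaged over Chd1 status, against 23.7% of all genes. The 8 neuroendocrine markers summed to 197, 388 and 196 CPM in shControl, 504 and 489 in shChd1 and 41.6 to 128 in the Map3k7 clones, nearly all of it Ncam1, with Chga at 0 throughout. The 7 smooth muscle markers summed to 3.24 to 7.59 CPM in the control lines and 0.356 to 2.75 in the Map3k7 clones, the 6 urothelial markers to at most 1.06 and the 7 immune markers measured to at most 4.11. In RNA from whole cultures, fewer cells of a type and less RNA per cell cannot be told apart. The part of these cells or genes in the keratin differences was not tested.

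The gene nearest to each keratin was found by the root mean square (RMS) difference of log2 CPM over the 11 libraries, each profile centred on its own mean, among the 9105 tested genes whose mean reached 10 CPM. For Krt8 they were Ap1m2, a sorting adaptor of epithelial cells (RMS 0.114), Mpzl2, an adhesion gene (0.119), and Dsp (0.127). For Krt18 they were the receptor gene Erbb3 (0.141), the small GTPase gene Rab25 (0.147) and the polarity gene Llgl2 (0.174). For Krt7 they were the kinase gene Mapk13 (0.118), Mboat1 (0.119) and Wwc1 (0.128), and for Krt19 the lipase gene Lipg (0.190), Igsf9 (0.216) and Sema3e (0.233). Krt8 ranked 25 among the genes nearest to Krt18, and Krt18 ranked 49 for Krt8, at an RMS of 0.267. Krt7 and Krt18 were the least alike of the 4 (0.607), with Krt18 at rank 5013 for Krt7 and Krt7 at rank 278 for Krt18. These distances share libraries and lines and carry no test.

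The keratins did not move with their chromosomes as a whole. Against the control mean, the median gene of chromosome 15 lay between log2 -0.07 and 0.02 in each library and that of chromosome 11 between -0.04 and 0.04. Of 22 tested neighbours within 500 kb of Krt8 and Krt18, 7 rose and 5 fell with Map3k7 knockdown averaged over Chd1 status, against 24% and 23.7% of all genes. In shChd1 none rose and 3 fell, against 2.24% called lower. The 3 were the keratins Krt6a and Krt6b, whose calls were lost without shControl replicate 1, and Mfsd5 (-0.53, edgeR adjusted p 0.047). The neighbourhoods of Krt7 and Krt19 were not counted.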

How the data were processed

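Per the submitters' processing notes, the authors used Bowtie2, RSEM 1.3.1 and limma with GRCm38; the sources used here give neither the annotation nor the strand setting. The raw table holds the authors' expected counts, which divide reads between similar genes, and the deposited normalized table holds log2 values of counts scaled to library size. The counts were rounded and analysed in R 4.3.3 with edgeR 4.0.16: filterByExpr (minimum count 10, minimum total 15; 14346 genes kept), TMM factors, 1 coefficient for each group with all 11 libraries in the fit, quasi-likelihood F-tests, and p-values adjusted by Benjamini-Hochberg over every gene kept. Genes were called at an adjusted p under 0.05. The alternatives used DESeq2 1.42.0 and limma 3.58.1. The fits were tested on simulated data. Libraries of 1 line are paired by the labels, which give each library its line, and the difference between clones 1 and 7 correlated across genes at r = 0.571 between shMap3k7 and shDouble. Levels per kb used GENCODE M21 principal transcripts. Named genes were the 4 keratins, Map3k7, Chd1, listed keratins of at least 1 CPM, up to 3 genes of a list with the smallest adjusted p, and the 3 nearest genes by profile; Zeb1, Dsp and marker levels are also given by library. The members and lists were chosen with earlier results of these data known. Counts for lists without a library or line, and other lengths, were added after seeing the data. Some genes that the rule names are not reported here.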

Additional observations from a re-analysis of the deposited data

How the results depend on the processing

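The shMap3k7 count of 1712 genes became 227 with only the groups compared, 400 with counts summed per line within a group and 2609 with DESeq2. The shChd1 count of 417 became 684 with no filter, 0 with only the groups compared, 142 with the line as a replicate block, 0 summed per line and 1715 with DESeq2. Summing per line gave 554 for shDouble against shControl (from 3413) and 1569 for shDouble against shChd1 (from 6426). For Map3k7 knockdown averaged over Chd1 status (from 6849), it gave 3903 within groups and 102 over all libraries of a line. Without control line 4 and its shChd1 libraries, an alternative chosen after seeing the data, the Map3k7 clones against shControl gave 1840. The interaction count of 0 became 31 with no filter, 11 with the replicate block and 395 with DESeq2, and the within-line Chd1 count of 4 became 26 with no filter, 1 with no replicate block and 0 with limma.

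For single keratins, DESeq2 brought past the threshold Krt8 (0.73) and Krt18 (1.11) in shMap3k7, Krt19 in shChd1 (-1.67), and Krt7 (1.09), Krt8 (1.46) and Krt18 (1.59) in the interaction. No filter did so for Krt18 in shMap3k7 (1.12) and Krt19 in shChd1 (-1.68), limma for Krt18 in shMap3k7 (1.25), and the replicate block for Krt8 in the interaction (0.69). The block ended the shChd1 calls of Krt18 (-0.53), Krt80 (-0.94) and Krt6b (-3.21). Among the 4 simple keratins it changed no call other than these of Krt8 and Krt18. Fitting only the groups compared ended the shChd1 calls of Krt7 (-1.23), Krt8 (-1.47) and Krt18 (-1.66) and the shDouble call of Krt8 (0.72). Summing per line ended those of Krt7 (-1.23), Krt8 (-1.48) and Krt18 (-1.66) in shChd1, Krt8 (0.73) and Krt18 (1.07) in shDouble, and Krt19 against shChd1 (2.40). Over whole lines it ended the averaged calls of Krt7 (0.36), Krt8 (0.80), Krt18 (1.12) and Krt19 (0.82). Krt7 (0.11) and Krt19 (0.46) did not pass in the fit without control line 4 and its shChd1 libraries. The balance was -0.46 over lines and -0.33 without control line 4. Fewer samples or residual degrees of freedom come with these fits by construction; otherwise the cause was not tested. For shDouble against shMap3k7 the sign changed near 0 for Krt8 with no filter (0.0037) and limma (0.0064), and for Krt19 with no filter (0.0003).

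Leaving out 1 library at a time gave 244 to 2070 calls for shMap3k7, 0 to 2650 for shChd1, 2177 to 3273 for shDouble against shControl, 3649 to 6585 against shChd1, 0 to 1006 for the interaction and 0 to 5 within line. The lowest shMap3k7 count was without replicate 1 of that group and the highest shChd1 and interaction counts without shControl replicate 2. Log2 ranges were, in shMap3k7, Krt7 0.19 to 0.52, Krt8 0.46 to 1.00, Krt18 0.77 to 1.37 and Krt19 0.47 to 1.24. In shChd1 they were Krt7 -1.45 to -1.05, Krt8 -1.75 to -1.21, Krt18 -2.01 to -1.41 and Krt19 -2.14 to -1.17. In shDouble against shControl they were Krt8 0.45 to 1.00, Krt18 0.72 to 1.32 and Krt19 0.46 to 1.23, and against shMap3k7 Krt8 -0.02 to 0.02 and Krt19 -0.18 to 0.20. For the interaction they were Krt7 0.92 to 1.32, Krt8 1.21 to 1.75 and Krt18 1.36 to 1.96. Where a group was left with 1 library, that library is assumed to vary like the others. A total count of at least 14132371 per library leaves counting error small for Krt7, Krt8 and Krt18, while Krt19 had 205 counts in its lowest library. Over 2 clones and 3 control lines, the number of lines limits every Map3k7 comparison.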

Other observations

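Of 12 genes of other intermediate filaments 7 were tested, and 4 rose and 3 fell with Map3k7 knockdown averaged over Chd1 status, against 24% and 23.7% of all genes. Vim, which encodes the filament protein of mesenchymal cells, was at 865, 935 and 451 CPM in shControl, 906 and 935 in shChd1, 414 and 287 in shMap3k7, and 405, 335, 298 and 246 in shDouble. It fell by log2 -1.10 ± 0.30 in shMap3k7 (SE; edgeR adjusted p 0.0424) and by -1.23 ± 0.24 in shDouble (0.00619) against shControl, and the Map3k7 clones were below every control-line library. Nes, which encodes nestin, fell by -1.95 ± 0.28 with Map3k7 knockdown averaged over Chd1 status (0.000345). The nuclear lamin genes Lmnb1 (0.62 ± 0.09, 0.000511) and Lmnb2 (0.68 ± 0.08, 9.8e-05) rose in the same comparison.

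Basal markers other than keratins did not change as a block. Of 13 tested, 8 rose and 3 fell with Map3k7 knockdown averaged over Chd1 status, against 24% and 23.7% of all genes. Without control line 4 and its shChd1 libraries 4 rose and 2 fell of 12 tested, against 717 and 1123 of all 13789 genes. The Notch ligand Jag1 rose by 2.49 ± 0.13 (edgeR adjusted p 2.2e-06) and Cd44 by 1.44 ± 0.12 (2.5e-05). Trp63, which encodes the basal regulator p63, was at 11.4, 12.1 and 5.17 CPM in shControl, 18.5 and 20.9 in shChd1, and 0.52 to 2.34 in the Map3k7 clones, with no overlap.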
